A study of Bos taurus with 15 samples.

Results

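Hyaluronan is the long sugar polymer that fills the matrix around an ovulating oocyte, and the 10 genes described here make, bind, crosslink or cleave this matrix. They were chosen by name, as the transcript clusters (sets of probes for a transcribed locus) of the array whose only gene symbol is HAS2, HAS3, CEMIP, CD44, HAPLN1, PTX3, TNFAIP6, VCAN, ADAMTS1 or ADAMTS9. All 10 symbols were found, each with 1 cluster, among 26773 clusters in all. Bovine granulosa cells (GC), the steroid-producing cells of the follicle wall, were pooled from abattoir ovaries, frozen, thawed and grown for 8 days on collagen in serum-free medium with FSH, R3 IGF-1, insulin, transferrin, selenite and androstenedione, which all groups received. Of 15 cultures, 5 additionally received 30 mM sodium L-lactate, 5 received 30 mM NaCl as vehicle control and 5 were left untreated. RNA of each culture was measured on a Bovine Gene 1.0 ST array. The values are log2 signals, so that a difference of 1 is a doubling, and they can be compared between groups for 1 gene but not between genes.

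After the LH surge, granulosa and cumulus cells synthesize hyaluronan on synthases of the plasma membrane. In the mouse, TNFAIP6 protein (TSG-6) transfers heavy chains of the serum protein inter-alpha-inhibitor onto hyaluronan, and pentraxin 3 (PTX3) ties these chains together; cumulus complexes without either protein do not expand. Versican (VCAN) attaches to hyaluronan through link protein (HAPLN1), ADAMTS proteases cut versican, CD44 is the main cell surface receptor for hyaluronan, and CEMIP promotes its breakdown. The cells measured here were aspirated granulosa cells without a labelled cumulus or oocyte fraction, so these are transcript levels of cumulus matrix genes in cultured GC.

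HAS2 and PTX3 are the genes of the group that the study also measured by PCR. The primers of these assays, which identify the stretches of transcript that were amplified, are shown 5′ to 3′ in lower case because no part of them is singled out. They were not used for the array values below.
HAS2 forward: gaaactgcccgccaccgacccttc
HAS2 reverse: ccggtgctccaaaaaggcaaacaggc
PTX3 forward: tttgtgcgctctggtctgcagtgt
PTX3 reverse: catggtgaagagcttgtcccactcg

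Between L-lactate and NaCl treated GC, HAS2, PTX3, TNFAIP6 and ADAMTS1 were up-regulated and HAPLN1 was down-regulated. A gene was called where the adjusted p (limma, Benjamini-Hochberg over all clusters) was under 0.05 and its signal differed more than 1.5-fold. Thus 4 of the 10 genes were higher and 1 was lower, against 1.28% of all clusters that were called higher and 0.601% that were called lower. In 7 of the 10 genes no L-lactate array lay within the range of the NaCl arrays, which held for 19.1% of all clusters. The median log2 difference was 0.38 over the 10 genes and -0.011 over all clusters. In such bulk samples, a change of RNA per cell and a change in the cells present cannot be told apart.

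Between L-lactate treated and untreated GC, HAS2, PTX3, CEMIP and ADAMTS1 were higher and HAPLN1 was lower. These are 4 and 1 of the 10 genes, against 1.93% and 1.33% of all clusters. The arrays did not overlap in 8 of the 10 genes, against 22.4% of all clusters. Between NaCl treated and untreated GC, CEMIP alone was higher and HAS2, PTX3 and TNFAIP6 were lower. These are 1 and 3 of the 10 genes, against 0.403% and 0.743% of all clusters, and the arrays did not overlap in 6 of the 10 genes, against 11.0% of all clusters. Each pair of these comparisons shares a group of arrays, so their results are not independent of each other.

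**Figure D1:**
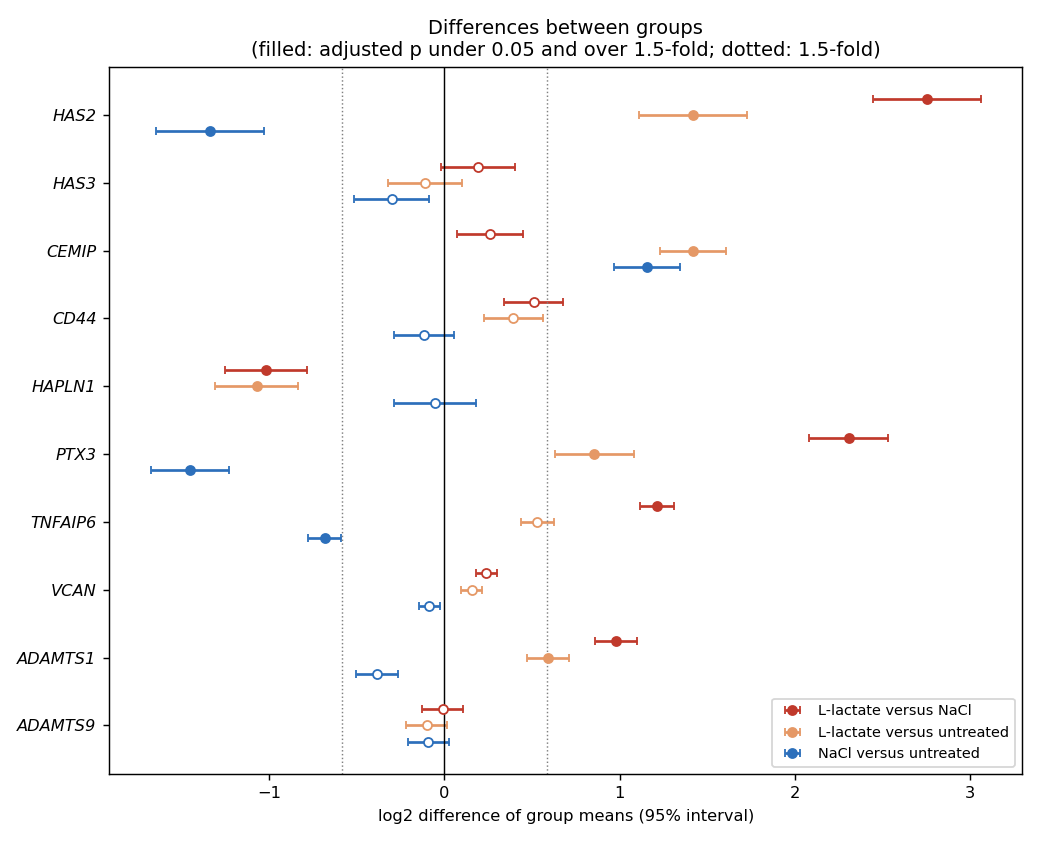
Log2 difference of group means (horizontal axis) with its 95% interval for the 10 genes and the 3 comparisons; filled points were called, and the dotted lines mark the fold threshold of 1.5. HAS2, PTX3, TNFAIP6 and ADAMTS1 lie right of 0 for both L-lactate comparisons and left of 0 for NaCl against untreated, CEMIP lies right of 0 in all 3, and HAPLN1 lies left of the dotted line only where L-lactate is compared.

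HAS2, the synthase on which cumulus hyaluronan depends, showed the largest differences of the group between L-lactate and NaCl. Its log2 signal in L-lactate treated GC was 5.78, 5.98, 5.82, 6.08 and 5.33, in NaCl treated GC 2.75, 3.53, 2.98, 3.15 and 2.82, and in untreated GC 4.31, 4.46, 4.37, 4.42 and 4.34. Every L-lactate array was above every untreated array, and every untreated array was above every NaCl array. The means were 5.80 ± 0.29 (SD, n = 5) with L-lactate, 3.05 ± 0.31 with NaCl and 4.38 ± 0.059 in untreated GC, which varied least between arrays. L-lactate exceeded NaCl by 2.75 (SE 0.14, adjusted p = 3.45e-09 by limma), a fold change of 6.74 with a 95% interval of 5.45 to 8.34. L-lactate exceeded untreated GC by 1.42, a fold change of 2.67 (adjusted p = 2.12e-06). NaCl treated GC were lower than untreated GC by a log2 difference of -1.34, a fold change of 2.52 (adjusted p = 1.46e-05). Whether HAS2 was above the background of the array with NaCl was not tested. The 8 oocyte markers averaged from 1.53 (DDX4) to 3.85 (OOEP) with NaCl, among them BMP15 at 3.37 and ZP2 at 3.14. As signals cannot be compared between genes, this range is only a rough guide to background. The fold changes against NaCl are those of the array signals, and they would be lower bounds if NaCl treated GC lay at background. The same limit applies to other genes in or below this oocyte range, among them HAS3, HAPLN1 with L-lactate, ADAMTS20 and AREG. ITIH1, ITIH2, AMBP, CRP and APCS, named below, also had such signals. An exact two-sided permutation test of each of the 3 pairs of groups gave p = 0.00794, the smallest p that 5 arrays against 5 allow.

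HAS3, another hyaluronan synthase, was not called in any comparison. Its log2 signal ranged from 3.20 to 3.59 with L-lactate, from 2.95 to 3.36 with NaCl and from 3.36 to 3.74 in untreated GC. L-lactate and NaCl differed by 0.19, with a 95% interval of -0.020 to 0.40 (adjusted p = 0.21 by limma). L-lactate and untreated GC differed by -0.11 (-0.32 to 0.10). NaCl and untreated GC differed by -0.30, with an interval of -0.51 to -0.089 and an adjusted p of 0.0654. The same value of 3.36 occurred on 5 of the 15 arrays, from all 3 groups, and HAS3 had 11 distinct values only, whereas HAS2 had 15. HAS1 was also looked for, but no cluster had it as the only gene symbol, so it was not measured here.

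**Figure D2:**
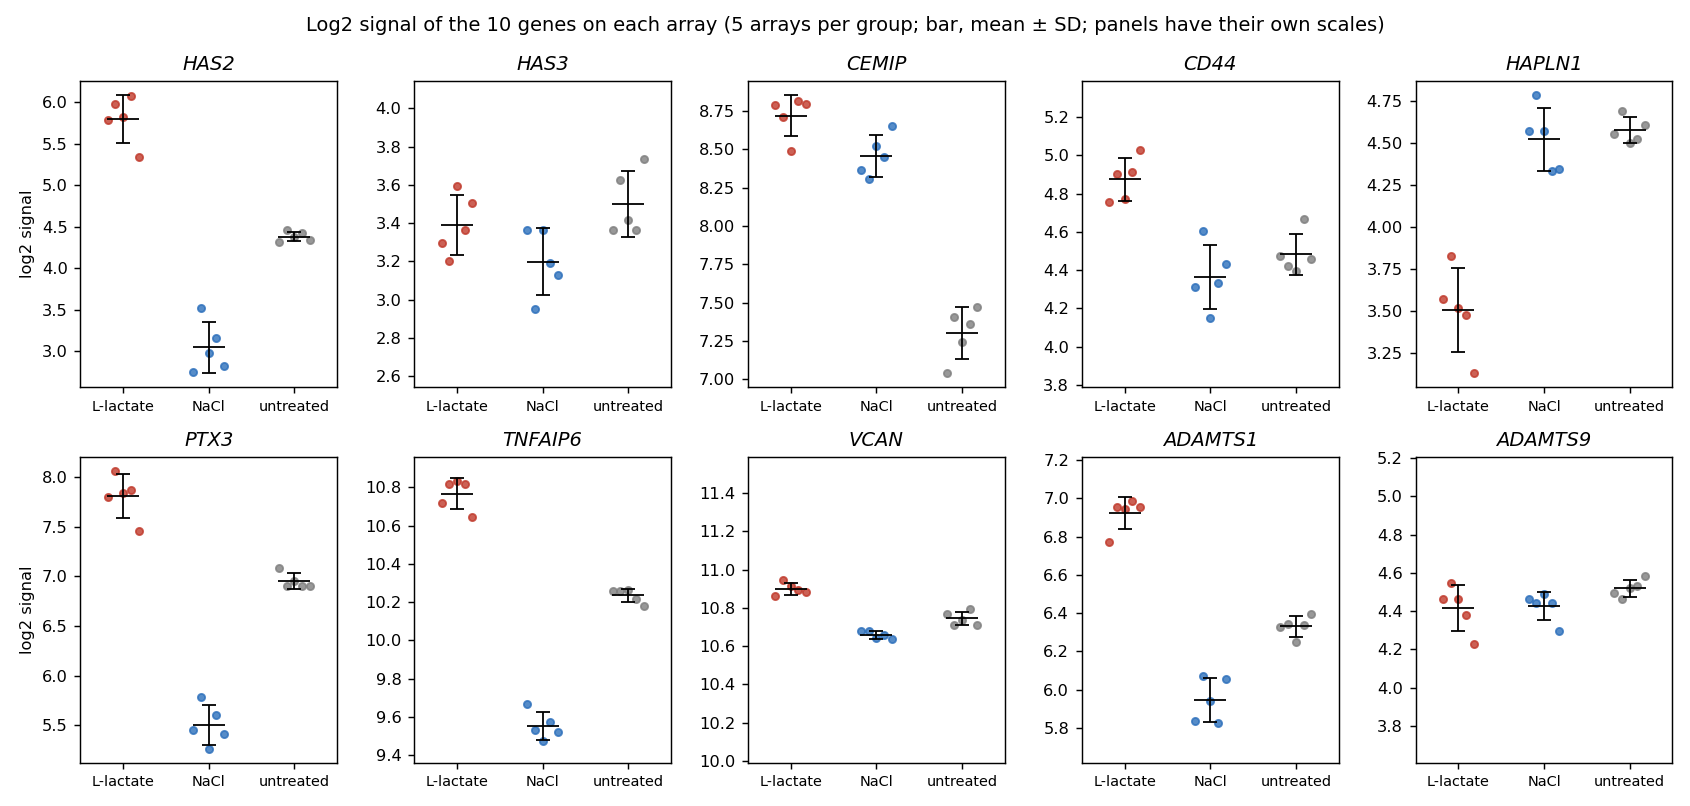
Log2 signal (vertical axis) of the 10 genes on each of the 15 arrays by group; points are arrays, bars the mean ± SD of 5 arrays, and each panel has its own scale. HAS2, PTX3, TNFAIP6, VCAN and ADAMTS1 have the untreated arrays between the L-lactate and the NaCl arrays; HAPLN1 is low with L-lactate alone, at a mean of 3.51, and CEMIP is low in untreated GC alone, at a mean of 7.30.

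PTX3 and TNFAIP6, whose products take part in crosslinking hyaluronan, had the same order of groups. PTX3 read 7.80, 8.07, 7.84, 7.87 and 7.46 in L-lactate treated GC, 5.46, 5.78, 5.26, 5.60 and 5.41 in NaCl treated GC and 7.09, 6.90, 6.96, 6.91 and 6.91 in untreated GC. No array of a group reached the range of another group. The log2 difference between L-lactate and NaCl was 2.30 (SE 0.10, adjusted p = 8.68e-10 by limma), a fold change of 4.94 with a 95% interval of 4.23 to 5.77. With L-lactate, PTX3 was 1.81-fold higher than in untreated GC (log2 difference 0.85, adjusted p = 1.43e-05). With NaCl it was 2.73-fold lower than in untreated GC (log2 difference -1.45, adjusted p = 3.21e-07). For PTX3, the size of the difference from untreated GC was thus larger with NaCl than with L-lactate, although these sizes were not tested against each other.

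TNFAIP6, whose product loads the heavy chains onto hyaluronan, read 10.72, 10.82, 10.83, 10.82 and 10.64 with L-lactate, 9.67, 9.53, 9.47, 9.57 and 9.52 with NaCl and 10.26, 10.26, 10.26, 10.22 and 10.18 in untreated GC. The 3 groups were apart by several times the SD within them, which was 0.082, 0.074 and 0.035. L-lactate exceeded NaCl by 1.21 (SE 0.045, adjusted p = 1.29e-10 by limma), a fold change of 2.32 with an interval of 2.17 to 2.48. The difference between L-lactate and untreated GC was 0.53 (adjusted p = 3.11e-07), and with a fold change of 1.44 it did not pass the fold threshold. NaCl treated GC were 1.61-fold lower than untreated GC (log2 difference -0.68, adjusted p = 1.47e-07).

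ITIH1, ITIH2 and ITIH3 code for heavy chains of the inter-alpha-inhibitor family, the parts that TNFAIP6 protein transfers. AMBP codes for the light chain, which is not transferred. L-lactate and NaCl differed by -0.026 for ITIH1, 0.011 for ITIH2, 0.20 for ITIH3 and -0.044 for AMBP, and none of them was called in any comparison. ITIH1, ITIH2 and AMBP were named for this role, with their values known. Group means were 3.64 to 3.68 for ITIH1, 2.61 to 2.66 for ITIH2 and 3.20 to 3.30 for AMBP, within the range of the oocyte markers. For ITIH3 they were 3.87 to 4.07. Whether these genes were above background was not tested, so the lack of a call does not show that they were expressed and unchanged.

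Versican and its proteases differed in their results. ADAMTS1, the versicanase that progesterone receptor induces in mouse granulosa cells, read 6.77, 6.96, 6.94, 6.99 and 6.96 with L-lactate, 5.84, 6.07, 5.94, 5.83 and 6.05 with NaCl and 6.33, 6.34, 6.25, 6.34 and 6.40 in untreated GC. The groups did not overlap, and the untreated arrays lay in the middle. ADAMTS1 was 1.97-fold higher with L-lactate than with NaCl (log2 difference 0.98, SE 0.056, adjusted p = 8.41e-09 by limma). Against untreated GC, L-lactate gave a log2 difference of 0.59 (adjusted p = 1.07e-06), a fold change of 1.51 with an interval of 1.39 to 1.64. This call rests on the fold threshold. Without L-lactate replicate 2, 4 or 5 or without untreated replicate 3 the difference was 0.58, 0.58, 0.58 and 0.57, below it. The difference of NaCl from untreated GC was -0.39 (adjusted p = 2.57e-04), a fold change of 1.31.

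For ADAMTS9, a related versicanase, the arrays ranged from 4.23 to 4.55 with L-lactate, from 4.30 to 4.49 with NaCl and from 4.46 to 4.59 in untreated GC. The difference between L-lactate and NaCl was -0.010 with a 95% interval of -0.13 to 0.11 (adjusted p = 0.937 by limma), and it turned to 0.037 without L-lactate replicate 5 and to 0.0056 without NaCl replicate 3. The intervals against untreated GC were -0.22 to 0.015 for L-lactate and -0.21 to 0.025 for NaCl. The same value of 4.46 occurred on 3 of the 15 arrays, and ADAMTS9 had 13 distinct values. Whether it was above background was not tested, so the lack of a call does not show that it was expressed and unchanged.

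VCAN, the large proteoglycan that these proteases cut, read from 10.86 to 10.95 with L-lactate, from 10.64 to 10.68 with NaCl and from 10.71 to 10.80 in untreated GC. The groups did not overlap, but the differences were small. L-lactate and NaCl differed by 0.24 (SE 0.029, adjusted p = 1.58e-05 by limma), a fold change of 1.18. L-lactate and untreated GC differed by 0.15 (adjusted p = 6.69e-04) and NaCl and untreated GC by -0.085 (adjusted p = 0.0701). VCAN passed the fold threshold in no comparison.

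HAPLN1 was the 1 gene of the 10 that was called lower with L-lactate. The link protein that it encodes holds versican on hyaluronan. It read 3.57, 3.83, 3.52, 3.48 and 3.13 in L-lactate treated GC, 4.57, 4.79, 4.57, 4.33 and 4.34 in NaCl treated GC and 4.56, 4.69, 4.50, 4.53 and 4.61 in untreated GC. All L-lactate arrays were below all others, while NaCl and untreated arrays overlapped. The log2 difference of L-lactate was -1.02 against NaCl (SE 0.11, adjusted p = 6.09e-06 by limma) and -1.07 against untreated GC (adjusted p = 2.40e-06), which are fold changes of 2.02 and 2.10. NaCl and untreated GC differed by -0.054, with an interval of -0.29 to 0.18.

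CEMIP, the hyaluronan-degrading factor, had a pattern of its own. It read 8.79, 8.71, 8.49, 8.81 and 8.80 with L-lactate, 8.37, 8.30, 8.52, 8.45 and 8.65 with NaCl and 7.04, 7.41, 7.24, 7.36 and 7.47 in untreated GC. Both groups with added sodium salt were above all untreated arrays. L-lactate exceeded untreated GC 2.67-fold (log2 difference 1.42, SE 0.088, adjusted p = 1.35e-08 by limma) and NaCl exceeded untreated GC 2.23-fold (log2 difference 1.16, adjusted p = 5.92e-07). L-lactate and NaCl differed by 0.26 with an interval of 0.072 to 0.45. They overlapped, since L-lactate replicate 3 lay within the NaCl range, and their difference was below the fold threshold at an adjusted p of 0.0467 by limma, which varied from 0.015 to 0.116 over the alternatives tried.

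CD44, the hyaluronan receptor, was not called in any comparison. It ranged from 4.76 to 5.03 with L-lactate, from 4.15 to 4.61 with NaCl and from 4.40 to 4.67 in untreated GC, so that the L-lactate arrays were above all others. The log2 difference of L-lactate was 0.51 against NaCl (SE 0.079, adjusted p = 1.97e-04 by limma), a fold change of 1.42, and 0.39 against untreated GC (adjusted p = 0.00136). NaCl and untreated GC differed by -0.12 (-0.28 to 0.053).

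In all, 5 of the 10 genes, HAS2, PTX3, TNFAIP6, VCAN and ADAMTS1, had the 3 groups completely apart with L-lactate highest and NaCl lowest. Of all clusters, 0.534% had this order. The order counted was the one seen in these genes, so this share only describes how common it was and is no test of them. Within the L-lactate group, replicate 5 was the lowest array for 5 of the 10 genes, namely HAS2, PTX3, TNFAIP6, ADAMTS9 and HAPLN1. Without this array the difference between L-lactate and NaCl was 2.87 for HAS2, 2.39 for PTX3, 1.24 for TNFAIP6 and -0.92 for HAPLN1. When each array was left out in turn, this difference stayed between 2.68 and 2.87 for HAS2 and between -1.10 and -0.92 for HAPLN1.

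Of 90 further genes of the hyaluronan matrix and of its upstream cues, in 7 lists, 5 were higher and 0 were lower with L-lactate than with NaCl, against 1.28% and 0.601% of all clusters, and their median log2 difference was 0.034. The 5 were GFPT2, FBLN1 and ADAMTS20 and the growth factor genes EREG and AREG. GFPT2, which directs fructose 6-phosphate and glutamine towards the UDP-N-acetylglucosamine from which hyaluronan is built, ranged from 9.80 to 9.85 with L-lactate, from 8.95 to 9.04 with NaCl and from 9.15 to 9.31 in untreated GC (SD 0.022, 0.040 and 0.054, n = 5 each). It was 1.76-fold higher with L-lactate than with NaCl (log2 difference 0.82, adjusted p = 2.72e-10 by limma). Of 8 genes measured among 9 listed for hyaluronan precursors, GFPT2 alone was called, and their median difference was 0.14. Among the others, GNPNAT1, UGP2 and UAP1, enzymes of the sugar nucleotide pathways, differed by 0.20, 0.19 and 0.15.

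Of 11 symbols listed for hyaluronan turnover, older names of CEMIP and CEMIP2 among them, 6 were measured and none was called in any comparison. CEMIP, a member, is not counted here. The lysosomal hexosaminidase gene HEXA differed by -0.43 between L-lactate and NaCl (adjusted p = 2.31e-07 by limma), the glucuronidase gene GUSB by -0.28 and CEMIP2, which codes for a relative of CEMIP at the cell surface, by 0.30, while the hyaluronidase gene HYAL1 differed by 0.11. Of 12 hyaluronan receptors and partners of CD44, all measured, none was called between L-lactate and NaCl. The differences of highest size were 0.48 for HMMR, a hyaluronan-binding protein of the mitotic spindle, and 0.34 for MSN, the moesin gene, whose product links CD44 to actin. The receptor genes LYVE1 and TLR2 differed by -0.26 and -0.15.

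Of 18 genes measured among 19 listed for hyaluronan binding and crosslinking, FBLN1 alone was called between L-lactate and NaCl. Fibulin-1 is a known partner of versican and a cofactor of ADAMTS1. FBLN1 averaged 8.66 ± 0.071 (SD, n = 5) with L-lactate, 7.58 ± 0.11 with NaCl and 7.75 ± 0.088 in untreated GC. Its log2 difference was 1.08 against NaCl (SE 0.057, adjusted p = 3.74e-09 by limma) and 0.91 against untreated GC. FBN1, the microfibril protein fibrillin-1, differed by -0.51 from NaCl, short of the fold threshold, and was lower with L-lactate than in untreated GC, with a log2 difference of -0.61 (adjusted p = 3.34e-06). EFEMP1, which codes for fibulin-3, differed from NaCl by 0.14.

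Of 25 other ADAMTS proteases, ADAMTS-like proteins and TIMP inhibitors, measured among 26 listed, ADAMTS20 alone was called between L-lactate and NaCl and was higher by 0.69 (SE 0.099, adjusted p = 9.99e-05 by limma). It averaged 3.72 ± 0.078 (SD, n = 5) with L-lactate, 3.03 ± 0.24 with NaCl and 3.28 ± 0.14 in untreated GC. ADAMTS5, another versicanase, was higher in both treated groups than in untreated GC, with 5.91 ± 0.068 with L-lactate, 6.01 ± 0.099 with NaCl and 5.32 ± 0.15 in untreated GC. The log2 difference from untreated GC was 0.59 with L-lactate (adjusted p = 6.92e-06 by limma) and 0.70 with NaCl (adjusted p = 5.22e-06), and the gene was named after its values had been seen. ADAMTS3, a procollagen protease gene, differed by -0.33 between L-lactate and NaCl, and the inhibitor genes TIMP3 and TIMP4 by -0.23 and 0.22. Among 5 other pentraxins, measured of 6 listed, NPTX2 was lower than in untreated GC with a log2 difference of -1.08 with L-lactate (adjusted p = 6.33e-06 by limma) and -1.35 with NaCl (adjusted p = 2.79e-06), and none differed between L-lactate and NaCl past the thresholds. There, NPTX2 differed by 0.27, NPTX1 by -0.18, CRP by -0.17 and APCS by -0.15.

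Against untreated GC, 6 of the 90 further genes were higher and 3 lower with L-lactate, with a median of -0.042, against 1.93% and 1.33% of all clusters. With NaCl, 1 was higher and 3 were lower, with a median of -0.042 as well, against 0.403% and 0.743% of all clusters. FN1, the fibronectin gene, was lower in both treated groups, with log2 differences of -0.63 with L-lactate (adjusted p = 5.45e-07 by limma) and -0.62 with NaCl (adjusted p = 2.79e-06). SPP1, which codes for the CD44 ligand osteopontin, was called with NaCl, at -0.60 (adjusted p = 2.15e-07), and missed the fold threshold with L-lactate, at -0.53. FN1, SPP1 and the values of NPTX2 against untreated GC were also named after their values had been seen.

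Among the cues that induce cumulus expansion, 2 of 16 measured genes (18 listed) were called between L-lactate and NaCl, both higher. EREG, an EGF-like growth factor that follows the LH signal, averaged 7.66 ± 0.075 (SD, n = 5) with L-lactate, 5.42 ± 0.17 with NaCl and 5.45 ± 0.091 in untreated GC. The log2 difference of EREG was 2.25 against NaCl (SE 0.072, adjusted p = 3.07e-11 by limma) and 2.22 against untreated GC. AREG, a related factor, averaged 3.13 ± 0.28 with L-lactate, 2.34 ± 0.093 with NaCl and 2.31 ± 0.17 in untreated GC, and L-lactate exceeded NaCl by 0.79 (adjusted p = 1.04e-04 by limma). Neither was called between NaCl and untreated GC, where EREG differed by -0.030 and AREG by 0.026. PTGS2, the prostaglandin synthase of ovulation, differed by 0.45 between L-lactate and NaCl (adjusted p = 3.41e-06 by limma) and by -0.24 between NaCl and untreated GC, short of the fold threshold in both. RUNX1, a transcription factor induced by LH, differed by 0.44 between L-lactate and NaCl and was higher with L-lactate than in untreated GC by 0.92 (adjusted p = 5.65e-10).

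**Figure D3:**
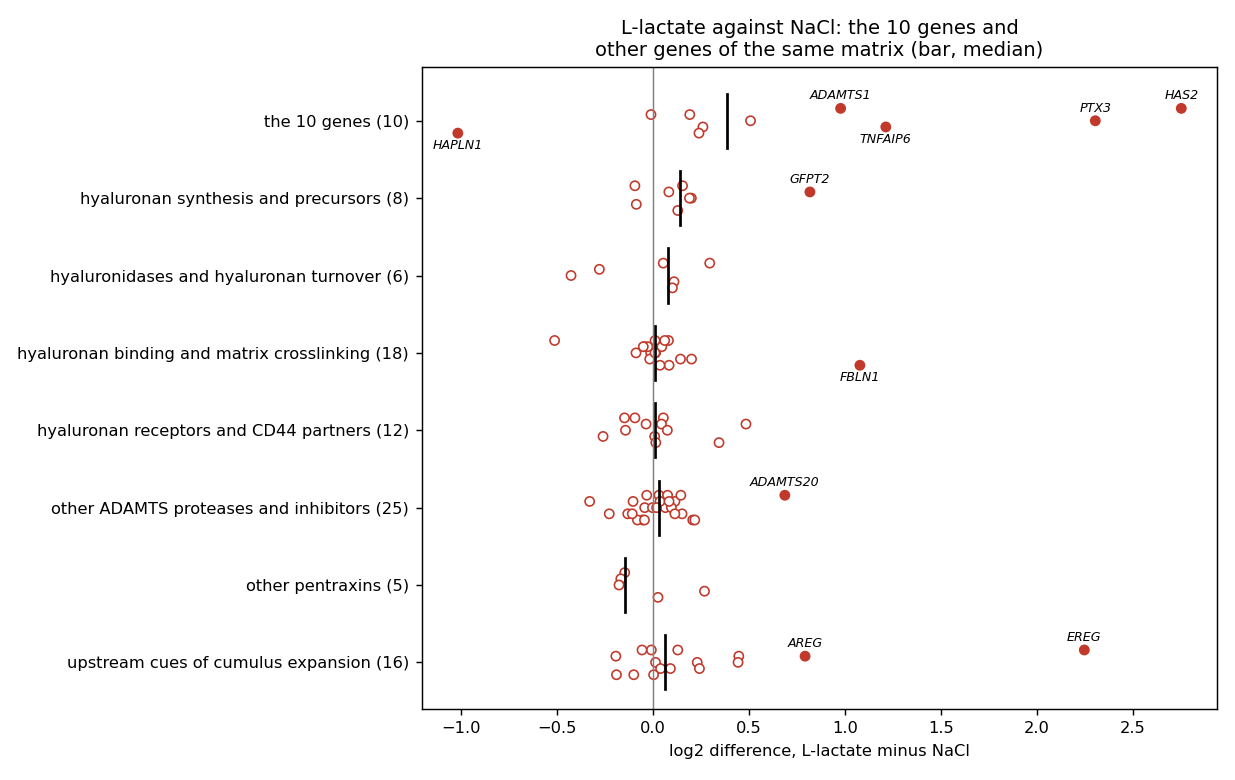
Log2 difference between L-lactate and NaCl (horizontal axis) for the 10 genes and for 7 lists of other matrix genes, with the number measured in brackets; each point is a gene, the bar is the median of its list, and filled points with names were called. The 10 genes spread from -1.02 for HAPLN1 to 2.75 for HAS2, whereas GFPT2, FBLN1, ADAMTS20, AREG and EREG are the only filled points of the other lists.

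The genes with the pattern closest to 3 of the members were sought by the root mean square difference over the 15 arrays, after each gene had been centred on its own mean. Nearest to HAS2 were LTC4S, the leukotriene C4 synthase gene (0.33), NDUFA4L2 (0.36) and a cluster annotated as NPS (0.40). Nearest to PTX3 were RANBP3L (0.23), NDUFA4L2 (0.24) and ANO3 (0.29). NDUFA4L2, a mitochondrial protein known from hypoxic cells, had log2 differences of 2.25 between L-lactate and NaCl and -1.25 between NaCl and untreated GC. Nearest to HAPLN1 were SLC7A11, the cystine transporter gene, ALDH1L2, a mitochondrial folate enzyme gene, and DDR2, a collagen receptor gene, at 0.15, 0.15 and 0.16. These measures describe likeness over these arrays and were given no test.

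**Figure D4:**
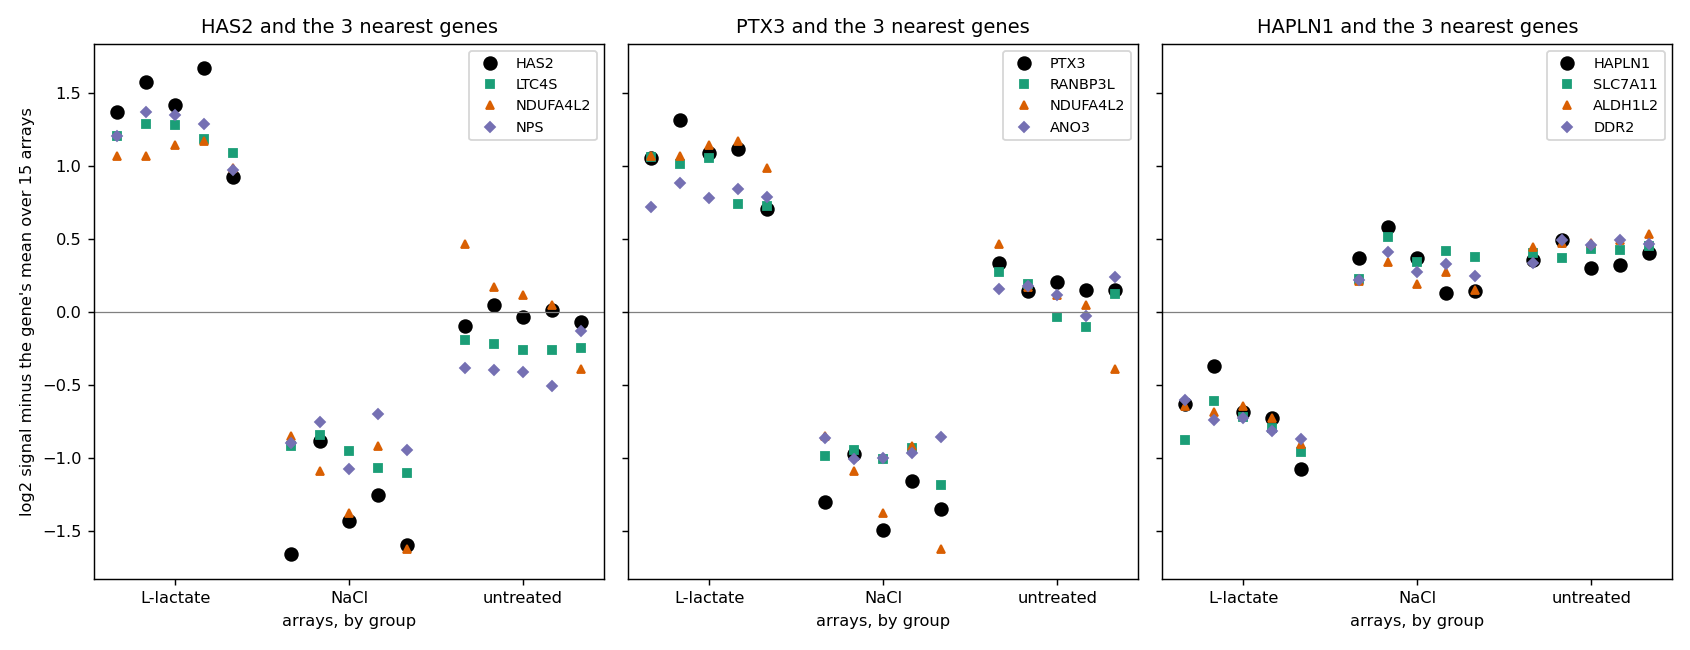
Log2 signal minus the gene's own mean over the 15 arrays (vertical axis), by array and group, for HAS2, PTX3 and HAPLN1 and the 3 genes nearest to each; points are single arrays. For HAS2 and PTX3 the untreated arrays lie between the other groups. For HAPLN1 and the 3 genes nearest to it, NaCl and untreated arrays lie above L-lactate, and for ALDH1L2 all NaCl arrays also lie below the untreated arrays.

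VCAN and HAPLN1, whose differences between L-lactate and NaCl had opposite signs, are next to each other in the bovine RefSeq annotation with 0 protein-coding genes between them. EDIL3, the next gene beyond HAPLN1, differed by -0.24 and XRCC4, the next beyond VCAN, by 0.12. ADAMTS1 lies between ADAMTS5 and CYYR1, and CYYR1 was higher with L-lactate than with NaCl by 0.84 (adjusted p = 6.48e-08 by limma) and differed from untreated GC by 0.27 with NaCl. Against untreated GC, CYYR1 was called higher with L-lactate, by 1.11. ADAMTS5 was called higher than in untreated GC with L-lactate and with NaCl, by 0.59 and 0.70, and differed by -0.11 between L-lactate and NaCl. Neither neighbour of ADAMTS1 was called lower with NaCl than in untreated GC. ADAMTS1 itself, at -0.39, was not called there either. The neighbours of TNFAIP6, RIF1 and NMI, differed by 0.35 and 0.28 between L-lactate and NaCl, neither of them called. RIF1 was called higher with L-lactate than in untreated GC, by 0.59. ZHX2, next to HAS2, and VEPH1 and CCNL1, next to PTX3, were not called in any comparison. A regional effect was not tested. These neighbours were looked up after the results of the members were known.

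The arrays were alike within groups, with medians of 4.52 to 4.60 and correlations between arrays of a group of 0.995 to 0.997. Of 10 granulosa markers all were measured, and 3 were called lower with L-lactate than with NaCl, against 0.601% of all clusters. Among them was the aromatase gene CYP19A1 at -1.22. The differences of the 10 ranged from -1.22 to -0.011, with a median of -0.35. FOXL2, at -0.58 (adjusted p = 7.33e-06 by limma), just missed the fold threshold with a fold change of 1.495. Their summed linear signal was 8338 to 8864 with L-lactate, 9809 to 10329 with NaCl and 9018 to 9339 in untreated GC. Such sums, here and below, give most weight to the markers of highest signal. With L-lactate, INHBA averaged a log2 signal of 11.73 among the granulosa markers and LUM 11.64 among the stromal markers. The sums are therefore no measure of each marker or of the amount of a cell type. The list of 5 cumulus cell markers held the members HAS2, PTX3 and TNFAIP6, and also SLC38A3 and AMH, which is a granulosa marker too. Between L-lactate and NaCl, AMH was called lower, at -0.74, and SLC38A3 differed by -0.22, not called. Of 8 leukocyte, 7 endothelial and 8 oocyte markers none was called in any comparison. The leukocyte markers summed to 142 to 156 with L-lactate, 126 to 134 with NaCl and 140 to 154 in untreated GC. The endothelial markers summed to 128 to 141 with L-lactate, 125 to 131 with NaCl and 117 to 135 in untreated GC. The oocyte markers overlapped in all groups, at 63.9 to 67.5 with L-lactate, 65.9 to 69.0 with NaCl and 65.8 to 69.0 in untreated GC. Of 5 theca markers measured among 6, none was called between L-lactate and NaCl, and INSL3 was lower than in untreated GC in both treated groups, while the sums were 318 to 391 with L-lactate, 328 to 406 with NaCl and 406 to 484 in untreated GC. Of 7 stromal markers, COL1A1 and PDGFRA were higher with L-lactate than with NaCl, by 1.19 and 0.59, whereas COL3A1 differed by -0.43, DCN by 0.48, PDGFRB by 0.074, TCF21 by 0.013 and LUM by 0.00087, none of them called. Against untreated GC, COL1A1 and PDGFRA were called higher with L-lactate, by 0.68 and 0.86. With NaCl they differed from untreated GC by -0.51 and 0.28, neither of them called. COL3A1 was lower than in untreated GC in both treated groups, with log2 differences of -1.10 with L-lactate and -0.67 with NaCl. The stromal sums were 4771 to 5095 with L-lactate, 4390 to 4882 with NaCl and 5098 to 5459 in untreated GC. The part of these changes in the results above was not tested.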

How the data were processed

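RNA of 15 cultures was measured on 15 arrays. The authors made the deposited log2 values with the Affymetrix Expression Console 1.4.1.46 by background reduction, normalization between arrays and RMA summary per transcript cluster; the submitters' processing notes name the same tools. The values were used as deposited, without a filter on signal. Detection calls and scan dates were not used here, so the number of arrays limits the precision and batches could not be examined. Genes were named by the platform annotation, and the gene IDs of 10 of 10 members were found with the same symbol in RefSeq (ARS-UCD2.0), which served for names and neighbours only. For a listed gene with several clusters the one of highest mean was taken.

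The limma package (3.58.1, under R 4.3.3) fitted all 15 arrays at once with a coefficient per group, and p-values were adjusted by Benjamini-Hochberg over all 26773 clusters. The thresholds were those of the study's methods, 0.05 for the adjusted p and 1.5 for the fold change. The fit was tested on simulated data. Intervals are 95% intervals of the moderated contrast. Exact two-sided permutation tests used the 252 labellings of 5 against 5 arrays, with a smallest p of 0.00794. Whether the replicates of a group came from separate cell pools is not given in the sources used here; the p-values therefore cover the spread between these samples only, and it may be technical.

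All members are named, with up to 4 genes of each list by the size of their difference between L-lactate and NaCl and every listed gene called there. The members, lists and rules were chosen with earlier results of these data known. As alternatives, each comparison was fitted on its own 10 arrays, and the others were no moderation of the variance, Tukey biweight averages, the replicate block, a variance prior with trend and robust estimation, removal of clusters of low signal, 2 other scalings, other fold thresholds and leaving out each array.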

Additional observations from a re-analysis of the deposited data

Results flagged for a closer look

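An array was singled out where its distance from the nearest other array, divided by the range of its group of 5, exceeded Dixon's 95% critical value of 0.710. This was tested in 114 groups of 5 arrays, of which chance alone would single out about 1 in 20, and 9 were found, 3 of them among the 30 groups of the members. ADAMTS1 in L-lactate replicate 1 read 6.77, against 6.94 on the next array. CD44 in untreated replicate 4 read 4.67, against 4.47. ADAMTS9 in NaCl replicate 5 read 4.30, against 4.44. L-lactate replicate 5 was the lowest array for FBLN1 (8.54), NPTX2 (6.78) and PTGS2 (8.79). In untreated GC, CRP read 2.63 in replicate 1 and NPTX1 read 5.56 in replicate 3, both the highest of their group, and EREG read 5.29 in replicate 3, the lowest.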

How the results depend on the processing

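The counts of called members were 5, 5 and 4 for L-lactate against NaCl, L-lactate against untreated and NaCl against untreated. They were the same with the 10 arrays alone, without moderation, with Tukey biweight averages, with trend and robust estimation, without the clusters of low signal (all 10 members were kept) and with both other scalings. With a fold change above 2 they were 4, 3 and 3, and above 1.2 they were 6, 7 and 5. Over all clusters these thresholds gave 119, 201 and 70 calls and 2775, 3676 and 1458 calls, in place of 505, 875 and 307. Leaving out each array gave 5, 4 to 5 and 4 members, and 503 to 527, 832 to 899 and 287 to 323 clusters. The lost member was ADAMTS1 against untreated GC. The difference of ADAMTS9 between L-lactate and NaCl then ranged from -0.043 to 0.037. Without L-lactate replicate 5 and without NaCl replicate 3, it changed sign, to 0.037 and 0.0056. No other member changed its call or direction under these settings, the fold thresholds aside. A choice between clusters of a gene did not arise, as each member had 1.

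Equal replicate numbers showed no sign of pairing in these values. Whether they share a cell pool is not given in the sources used here. Deviations from the group means of same-numbered arrays correlated between -0.065 and 0.065, and 0 of 15 correlations exceeded 0.1. With the replicate number as a block, 5, 5 and 4 members and 507, 873 and 302 clusters were called.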
